A study of Mus musculus with 8 samples.

Results

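Rpl3, its muscle paralog Rpl3l and the processed pseudogene Rpl3-ps1 are described here across cardiomyocyte RNA from embryonic and adult mouse hearts. They are 3 of the 51826 gene identifiers in the table and were found by matching their identifiers to symbols. The set was chosen by the measured counts of Rpl3 and Rpl3-ps1, which differed in opposite directions between the genotypes, so the genotype differences below are a description and carry no test. The study compared wild-type mice (WT) with mice of the genotype LncSync-/- (KO), null for a gene named as a long noncoding RNA. All libraries carry the strain label C57BL/6. Cells came from hearts of embryos labelled e13.5 and from adults of unstated age, with 2 libraries in each of 4 groups: WT e13.5, KO e13.5, WT adult and KO adult. No treatment is listed, and the labels do not say how the null allele was made, how the cells were isolated, or whether animals were pooled. Nor is it stated if both libraries of each group stem from different animals. The p-values therefore measure the spread between these libraries, which may be technical.

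Rpl3 encodes a core protein of the large ribosomal subunit that reaches toward the site where peptide bonds form and joins the particle early in its assembly. Rpl3l encodes a paralog found mainly in heart and skeletal muscle, where it takes the place of the Rpl3 protein in ribosomes as the muscle matures. Rpl3-ps1 is a processed pseudogene, an intron-less copy of the spliced Rpl3 message inserted elsewhere in the genome. Reads that lie within sequence shared by a gene and such a copy cannot be placed with certainty, and the counting program divides them by its model.

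On the mouse build GRCm38, Rpl3 (ENSMUSG00000060036) lies on chromosome 15 from 80077791 to 80091868 on the minus strand. Rpl3l (ENSMUSG00000002500) lies on chromosome 17 from 24727820 to 24736143 on the plus strand, and Rpl3-ps1 (ENSMUSG00000084349) on chromosome X from 13202571 to 13203780 on the plus strand. The 1210 bases of Rpl3-ps1 aligned to the Rpl3 message without a gap, from 1 base before the start codon to the last base before the stop codon, and differed from it at 2 bases (99.8% identity). With positions counted from 1 at the A of the Rpl3 start codon, the differences are C57A in exon 2 and T786C in exon 6, each at the third base of a codon. The stretches of 61 bases around them, read from GENCODE transcripts, are shown because they are the sole places where a read inside the copied part can tell Rpl3 from Rpl3-ps1. Capitals mark the differing base in Rpl3 and Rpl3-ps1, and in Rpl3l every base that differs from Rpl3. Around the first difference the intervals are chr15:80082499-80082559 (minus strand), chrX:13202598-13202658 (plus strand) and chr17:24728340-24728400 (plus strand).
Rpl3: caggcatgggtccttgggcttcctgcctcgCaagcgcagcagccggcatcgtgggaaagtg
Rpl3-ps1: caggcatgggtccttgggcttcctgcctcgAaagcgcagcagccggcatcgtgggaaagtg
Rpl3l: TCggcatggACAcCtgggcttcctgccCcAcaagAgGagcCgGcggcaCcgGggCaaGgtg
Around the second they are chr15:80079723-80079783 (minus strand), chrX:13203327-13203387 (plus strand) and chr17:24733651-24733711 (plus strand).
Rpl3: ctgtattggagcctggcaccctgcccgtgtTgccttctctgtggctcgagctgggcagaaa
Rpl3-ps1: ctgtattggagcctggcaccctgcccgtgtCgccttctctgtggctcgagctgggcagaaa
Rpl3l: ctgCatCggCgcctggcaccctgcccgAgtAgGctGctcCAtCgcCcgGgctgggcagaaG
Rpl3l carries 16 and 13 differing bases in these stretches, where Rpl3-ps1 carries 1 in each.

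Over the whole copy, 91.4% of all windows of 50 bases of Rpl3-ps1 occur unchanged in the Rpl3 message, as do 85.8% of windows of 100 bases and 80.4% of windows of 150 bases. In the other direction, 76.1% of the 100-base windows of the Rpl3 message occur in Rpl3-ps1, since the message also holds untranslated ends that the copy lacks. The read length is not given in the sources used here. For Rpl3l, 0 of 1326 windows of 50 bases occur in Rpl3, so no read of that length or longer within these transcripts is shared. The paralogs nevertheless share their exon plan: 9 of 10 coding exons have the same length in Rpl3 and Rpl3l, and over those 1167 bases 74.4% are identical, with a longest shared run of 22 bases. The last coding exon is where they part in length, by 12 bases, and it is shown for that reason with the stop codon in capitals (chr15:80077850-80077894, minus strand, and chr17:24736000-24736056, plus strand).
Rpl3: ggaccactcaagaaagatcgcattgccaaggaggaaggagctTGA
Rpl3l: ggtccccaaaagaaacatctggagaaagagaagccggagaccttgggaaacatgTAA

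Total counts ran from 16495084 to 20395600 per library, and levels are given as CPM, counts scaled to an equal effective total per library. A floor of 3 counts corresponds to 0.103 to 0.207 CPM. All 10 cardiomyocyte markers had counts in every group. Their summed level was 17717 to 19761 CPM in WT and 9204 to 19191 CPM in KO at e13.5, against 73900 to 74183 CPM in WT and 50583 to 72786 CPM in KO adults. Erythroid markers stood at 20137 to 160002 CPM at e13.5 and at 16.8 to 179.6 CPM in adults, where the embryonic globin genes Hbb-y and Hba-x were at 0. KO e13.5 replicate 1 was the highest in erythroid markers. Mitochondrial genes took 3.21% to 4.36% of counts in embryonic libraries, against 22.6% to 28.8% in adult ones. Smooth muscle and pericyte markers summed to 1138 to 2234 CPM at e13.5, against 518 to 943 CPM in adults. Leukocyte markers stood at 64.0 to 104.9 CPM in embryos and at 166 to 430.5 CPM in adults, so neither list overlapped between the ages. These features moved with age, and their part in the age differences below was not tested. Fibroblast markers (410 to 3688 CPM at e13.5, 401 to 1025 CPM in adults) and endothelial markers (530 to 731 and 690 to 1713 CPM) overlapped between the ages. Fibroblast markers also differed within groups, at 874 and 3688 CPM in WT e13.5 and 410 and 3618 CPM in KO e13.5 libraries. Their part was not tested either. In RNA from many cells, fewer cells of a type and less RNA per cell cannot be told apart.

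In WT libraries nearly all counts of the pair lay on Rpl3, and in KO libraries about 4 in 5 lay on Rpl3-ps1, at both ages. The sources used here do not say whether read length, reference and counting settings were the same for both genotypes, and a difference in them cannot be told apart from genotype. At e13.5, Rpl3 stood at 1015 and 611 CPM in WT replicates 1 and 2 and at 163 and 173 CPM in KO. Rpl3-ps1 stood at 0.783 and 0.448 CPM in WT and at 692 and 652 CPM in KO. The KO libraries were low in Rpl3 and high in Rpl3-ps1, the difference on which these rows were chosen. In adults, Rpl3 stood at 126 and 94.2 CPM in WT and at 26.4 and 15.6 CPM in KO. Rpl3-ps1 had 0 counts in both adult WT libraries, which allows up to 0.138% and 0.219% of the pair's counts (3 counts of the total), and reached 153 and 67.1 CPM in KO. As a share of the pair's counts, Rpl3-ps1 took 80.9% (exact 95% interval 80.2% to 81.6%) and 79.1% (78.5% to 79.6%) in KO at e13.5. The share was 85.3% (83.9% to 86.6%) and 81.1% (78.8% to 83.2%) in adult KO libraries. In WT e13.5 libraries, 17 of 22039 and 13 of 17749 counts were on Rpl3-ps1, or 0.0771% and 0.0732%. These intervals cover counting error only, not the division of shared reads between the rows.

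The summed level of Rpl3 and Rpl3-ps1 overlapped between the genotypes at both ages. At e13.5 it was 1016 and 611 CPM in WT and 855 and 825 CPM in KO, so both KO libraries lay between the WT libraries. Their means were 813 ± 286 (SD, n = 2) and 840.1 ± 21.5 CPM, a KO to WT ratio of 1.03, whereas the ratio for Rpl3 alone was 0.207. In adults the sum was 126 and 94.2 CPM in WT and 179.7 and 82.7 CPM in KO, with a ratio of means of 1.19, against 0.191 for Rpl3 alone. Adult KO replicate 1 was the highest and adult KO replicate 2 the lowest of these 4. The other 46 large subunit genes were likewise higher in adult KO replicate 1 than in replicate 2, with summed levels of 9908 and 5384 CPM. In adult WT these were 6780 and 5254 CPM, so for these genes WT replicate 2 was the lowest. Fitted to the summed row, the KO minus WT difference was 0.05 ± 0.51 on the log2 scale at e13.5 and 0.25 ± 0.51 in adults (± standard error). The corresponding differences for Rpl3 alone were -2.27 ± 0.48 and -2.39 ± 0.49. Without KO adult replicate 1 the adult difference of the sum was -0.41, and without WT e13.5 replicate 1 the e13.5 difference was 0.61.

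**Figure D1:**
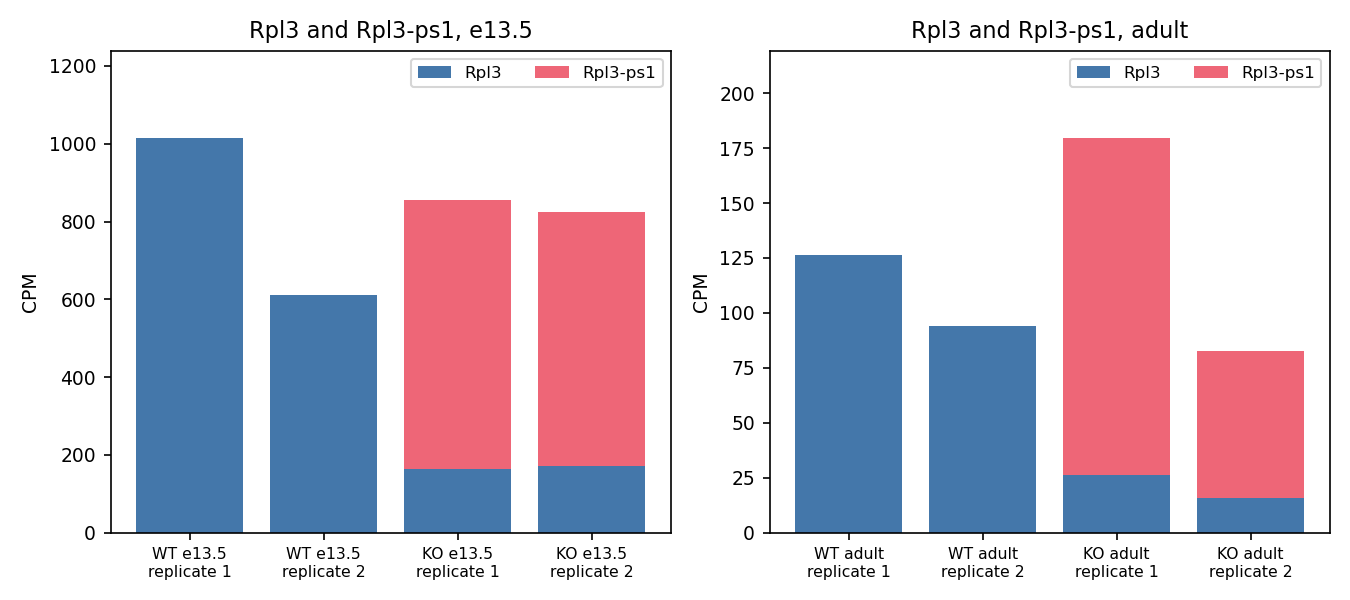
Level of Rpl3 (blue) and Rpl3-ps1 (red) in CPM, stacked, with 1 bar per library; the left panel shows e13.5 and the right panel adults, on separate linear axes that start at 0. The red part is nearly absent in WT and makes up 79.1% to 85.3% of the bar in KO, while the full bars of the genotypes overlap at each age.

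Other copies of Rpl3 took few counts. A search of the annotated transcripts found 33 pseudogenes that match the Rpl3 message, and 29 besides Rpl3-ps1 were in the table. Together they held 13 to 74 counts per library at e13.5 and 0 to 4 in adults, at most 0.417% of the counts of Rpl3 and Rpl3-ps1. Gm5879 (99.0% identity to Rpl3) had 3 and 32 counts in the WT e13.5 libraries, against 1 and 0 in the KO e13.5 libraries. Rpl3-ps2 (98.8%), on chromosome X like Rpl3-ps1, had 2 counts in KO e13.5 replicate 2 and 0 in the other 7 libraries. Gm12816 had 5 counts over all libraries, Gm5851 had 10, all in KO at e13.5, and Gm5850 had 25, all in WT at e13.5. Apart from Rpl3-ps1, which was chosen for its genotype difference, no copy exceeded 32 counts in a library. Whether counts moved from Rpl3 to Rpl3-ps1 was not tested. Within the span of Rpl3, the annotation places the small RNA genes Snord83b, Gm22077, Snord43 and Gm24204, each with 0 counts in every library. Syngr1, a synaptic vesicle protein gene on the opposite strand, overlaps the end of the Rpl3 span where that minus-strand gene begins, and had 266 to 968 counts. The strand setting of the counting is not given in the sources used here.

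Rpl3l was near the limit of detection in embryonic hearts and abundant in adult hearts of both genotypes. At e13.5 it had 18 and 17 counts in WT and 25 and 4 counts in KO, or 0.83, 0.585, 1.56 and 0.158 CPM. In adults it stood at 276 and 251 CPM in WT and at 334 and 256 CPM in KO. Every adult library lay far above every embryonic library, and the genotypes overlapped at each age. WT hearts showed a rise of 8.54 ± 0.96 on the log2 scale (adjusted p = 3.58e-04), and KO hearts one of 8.49 ± 0.96 (adjusted p = 3.05e-04), by edgeR's quasi-likelihood test with Benjamini-Hochberg adjustment over 16623 genes. At this threshold of 0.05, 38.9% of all genes tested changed with age in WT and 41.4% in KO. The share of tested genes that rose was 17.8% in WT and 20.5% in KO. Rpl3l ranked 72 in WT and 105 in KO among all tested genes ordered from the largest rise. In KO the size rests on few embryonic counts: it was 10.82 without KO e13.5 replicate 1, which left 4 counts as the baseline, and 7.55 without KO e13.5 replicate 2. The KO minus WT difference of Rpl3l was 0.21 ± 0.80 at e13.5 and 0.16 ± 0.68 in adults. Its sign turned at e13.5 without KO replicate 1 (-2.11), and in adults without KO replicate 1 (-0.041). Both Rpl3l and Rpl3-ps1 passed the filter on low counts, which does not require counts in every group. Skeletal muscle markers, relevant because skeletal muscle also makes Rpl3l, summed to 145.7 to 443 CPM at e13.5, 152 to 320.3 CPM in adult WT and 580.0 to 710.4 CPM in adult KO. Of these 10 markers, 7 had counts in WT e13.5, KO e13.5 and WT adult libraries and 6 in KO adult libraries. The fast myosin gene Myh4 and the satellite cell gene Pax7 were at 0 in all groups. The sums are not split by marker here, and whether they reflect skeletal muscle cells was not tested.

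Rpl3 fell with age in both genotypes, as did its sum with Rpl3-ps1. In WT, Rpl3 went from 813 ± 286 CPM at e13.5 to 110.2 ± 22.6 CPM in adults (SD, n = 2), a log2 change of -2.88 ± 0.50 (adjusted p = 0.00215, edgeR). In KO it went from 168.0 ± 6.55 to 21.03 ± 7.62 CPM, a change of -2.997 ± 0.50 (adjusted p = 0.00169, edgeR). Rpl3-ps1 in KO fell alongside, from 672 ± 28.1 to 110.2 ± 61.0 CPM, by -2.61 ± 0.55 (adjusted p = 0.00627, edgeR). For the summed row the change was -2.88 ± 0.55 (adjusted p = 0.00336, WT) and -2.68 ± 0.54 (adjusted p = 0.00428, KO), in a fit of the whole table with the rows merged. Among all genes tested, 21.1% fell with age in WT and 20.9% in KO, and the median change was -0.26 in WT and -0.15 in KO. Without WT adult replicate 2 the sum no longer passed in WT (adjusted p = 0.0547, change -2.67), and without KO adult replicate 2 Rpl3-ps1 no longer passed in KO (adjusted p = 0.0571, change -2.12). Without KO adult replicate 1 the falls in KO were larger, at -3.34 for the sum and -3.32 for Rpl3-ps1.

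The ratio of Rpl3l to the sum of Rpl3 and Rpl3-ps1 passed from below 0.002 in all embryonic libraries to above 1 in all adult libraries. In counts, the e13.5 libraries had 0.000817 and 0.000958 (WT) or 0.00183 and 0.000192 (KO). In adults it was 2.18 and 2.66 in WT and 1.86 and 3.10 in KO. The genotypes overlapped at each age, and the lowest adult ratio was 1016 times the highest embryonic ratio. Put as a share of all counts of the 3 rows, Rpl3l took 68.6% (exact 95% interval 67.5% to 69.7%) and 72.7% (71.4% to 73.9%) in adult WT libraries. In adult KO libraries it took 65.0% (63.9% to 66.0%) and 75.6% (74.4% to 76.8%), so the KO libraries lay on either side of the WT pair. At e13.5 the share ran from 0.0192% in KO replicate 2 to 0.182% in KO replicate 1. Over the 4 adult against the 4 embryonic libraries, the mean log2 ratio rose by 11.63 (p = 0.0286, exact permutation test, two-sided), the smallest p that 4 against 4 libraries allow. The rise was 11.02 without KO e13.5 replicate 2, the library with 4 Rpl3l counts. Against Rpl3 alone, the adult ratio would read 2.18 and 2.66 in WT but 12.6 and 16.4 in KO, so which rows stand in the denominator sets whether the genotypes appear apart.

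**Figure D2:**
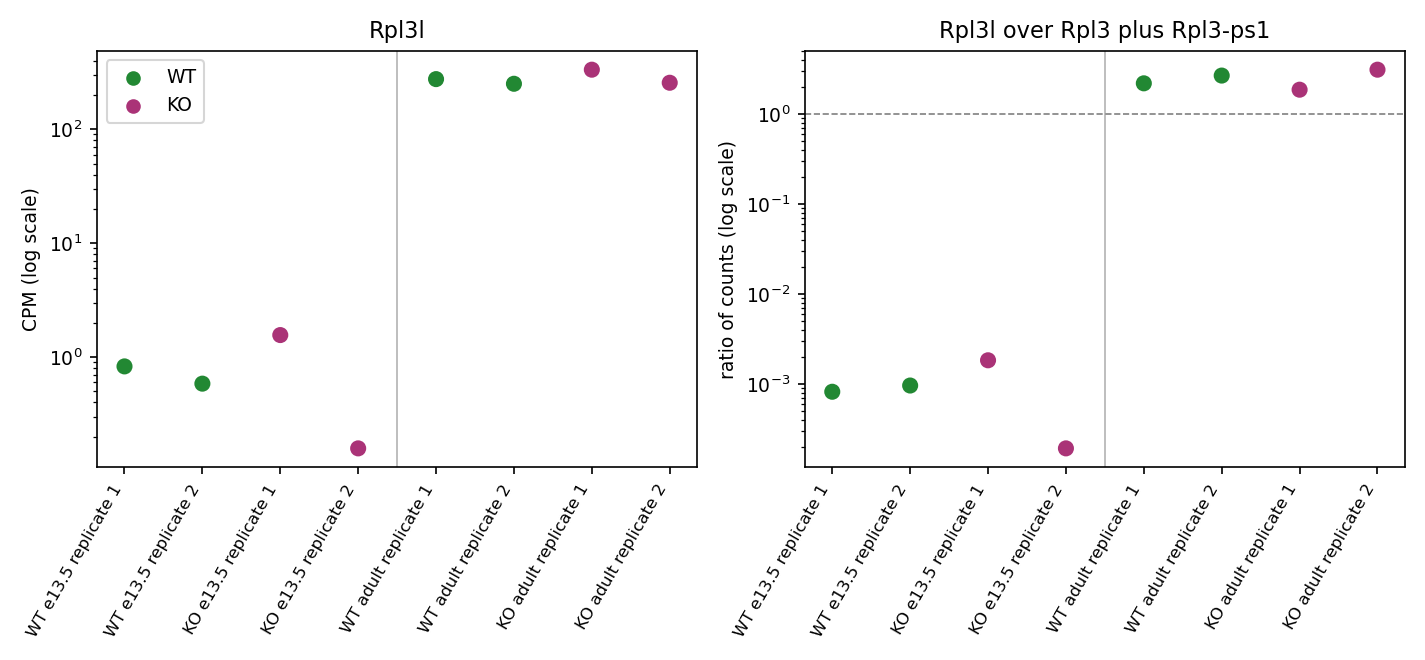
Rpl3l in CPM (left) and the ratio of Rpl3l counts to the summed counts of Rpl3 and Rpl3-ps1 (right), on log axes, with 1 point per library, WT in green and KO in purple; the dashed line marks a ratio of 1. All 4 embryonic points lie at or below 0.00183 and all 4 adult points between 1.86 and 3.10.

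Per length, the level of Rpl3 with Rpl3-ps1 lay above that of a typical large subunit gene at e13.5 and below it in adults, where Rpl3l stood above it. CPM were divided by the longest coding transcript of each gene, 1351 bases for Rpl3 and 1375 for Rpl3l, and set against the median of the other 46 large subunit genes in the same library. Rpl3 with Rpl3-ps1 stood at 1.63 and 1.60 times that median in WT e13.5 and at 1.98 and 1.81 times in KO e13.5. In adults the sum stood at 0.764 and 0.825 times in WT and at 0.683 and 0.664 times in KO. Rpl3 without its copy was already below the median in KO embryos, at 0.377 and 0.379 times, and stood at 0.1005 and 0.126 times in KO adults. Rpl3l stood at most at 0.00355 times the median at e13.5, but at 1.64 and 2.16 times in adult WT and 1.25 and 2.02 times in adult KO. All 3 rows together came to 1.60 to 1.98 times the median in embryonic libraries and 1.93 to 2.98 times in adult libraries. The overlap came from KO, where e13.5 replicate 1 (1.98) exceeded adult replicate 1 (1.93), while in WT the ages lay apart, at 1.63 and 1.60 against 2.40 and 2.98. These multiples do not show a rise of the family's level, since the median itself was lower in adults. Over all 47 large subunit genes it was 292 to 461 CPM per kilobase at e13.5 and 81.9 to 191 in adults. In that unit Rpl3 with Rpl3-ps1 stood at 452 to 752 at e13.5 and 61.2 to 133 in adults. Rpl3l stood at 182 to 243 in adults. Of 48 ranked rows, from the highest level per length, the sum went from ranks 5 to 12 at e13.5 to ranks 29 to 32 in adults. Rpl3l went from rank 48 in each embryonic library to ranks 12 to 20. As a share of the counts of all large subunit genes, the sum went from 4.21% to 4.88% at e13.5 to 1.51% to 1.83% in adults.

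**Figure D3:**
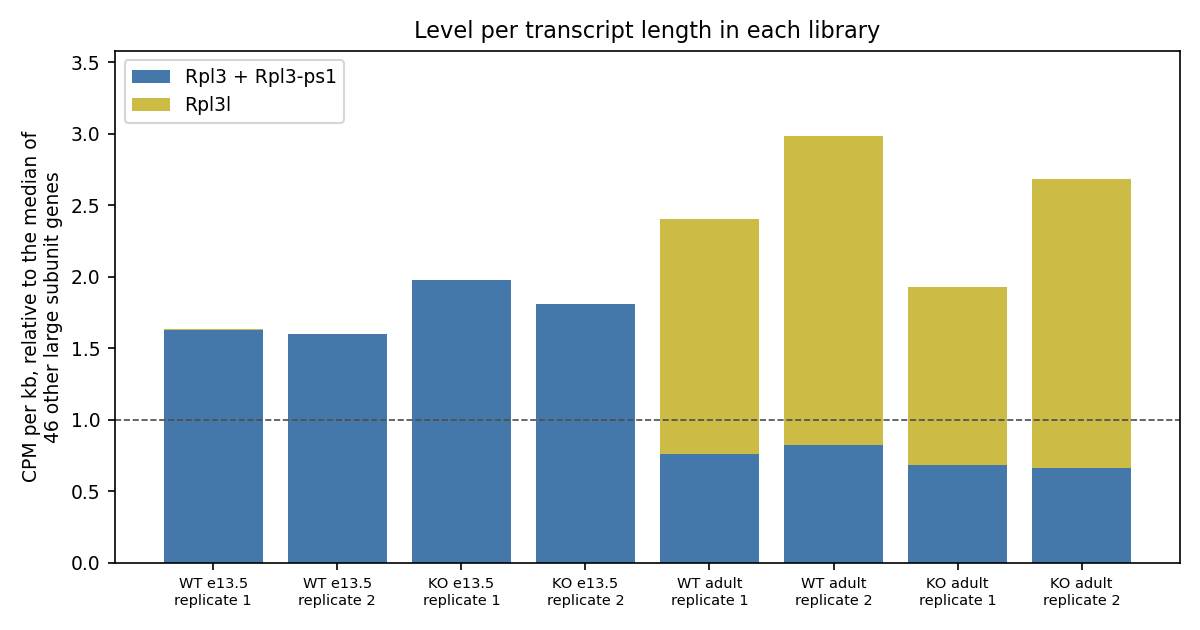
Level per kilobase of transcript for Rpl3 plus Rpl3-ps1 (blue) and Rpl3l (yellow), stacked, relative to the median of 46 other large subunit genes (dashed line at 1), with 1 bar per library on a linear axis. The blue part lies between 1.60 and 1.98 at e13.5 and between 0.664 and 0.825 in adults, where the yellow part adds 1.25 to 2.16. The median itself was lower in adults, so bar heights do not compare levels between the ages.

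The fall of Rpl3 with age stood among falls of other genes of the same subunit. Of 47 large subunit ribosomal protein genes, 31 fell in adult against e13.5 WT hearts and 0 rose, with a median change of -1.64. In KO, 18 of 47 fell and 0 rose, with a median of -1.11. The shares of all genes that fell, 21.1% and 20.9%, and the all-gene medians given above are the background for these counts. Leaving out a library changed them: in WT, 14 fell without WT e13.5 replicate 1, 13 without WT adult replicate 1 and 8 without WT adult replicate 2, and in KO 4 fell without KO adult replicate 2. Ordered by size, the fall of Rpl3 was number 6 in WT and number 4 in KO. Rpl27 went from 133.4 ± 38.2 to 7.27 ± 1.32 CPM in WT (-4.19 ± 0.47, adjusted p = 3.58e-04, edgeR). Rpl10, whose product joins the subunit late in its maturation, went from 619.6 ± 103.4 to 50.2 ± 14.8 CPM in WT (-3.63 ± 0.47). Rpl5, which carries the 5S ribosomal RNA, changed by -3.60 ± 0.49 and Rpl13 by -3.55 ± 0.57, and both fell in KO as well, by -3.52 ± 0.49 and -2.53 ± 0.54. At the other end of the list, Rpl7a had -0.43 ± 0.45 in WT and Rplp1 0.28 ± 0.55 in KO, which did not pass. Many genes of this list have processed copies of their own, so their counts share the uncertainty of Rpl3.

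**Figure D4:**
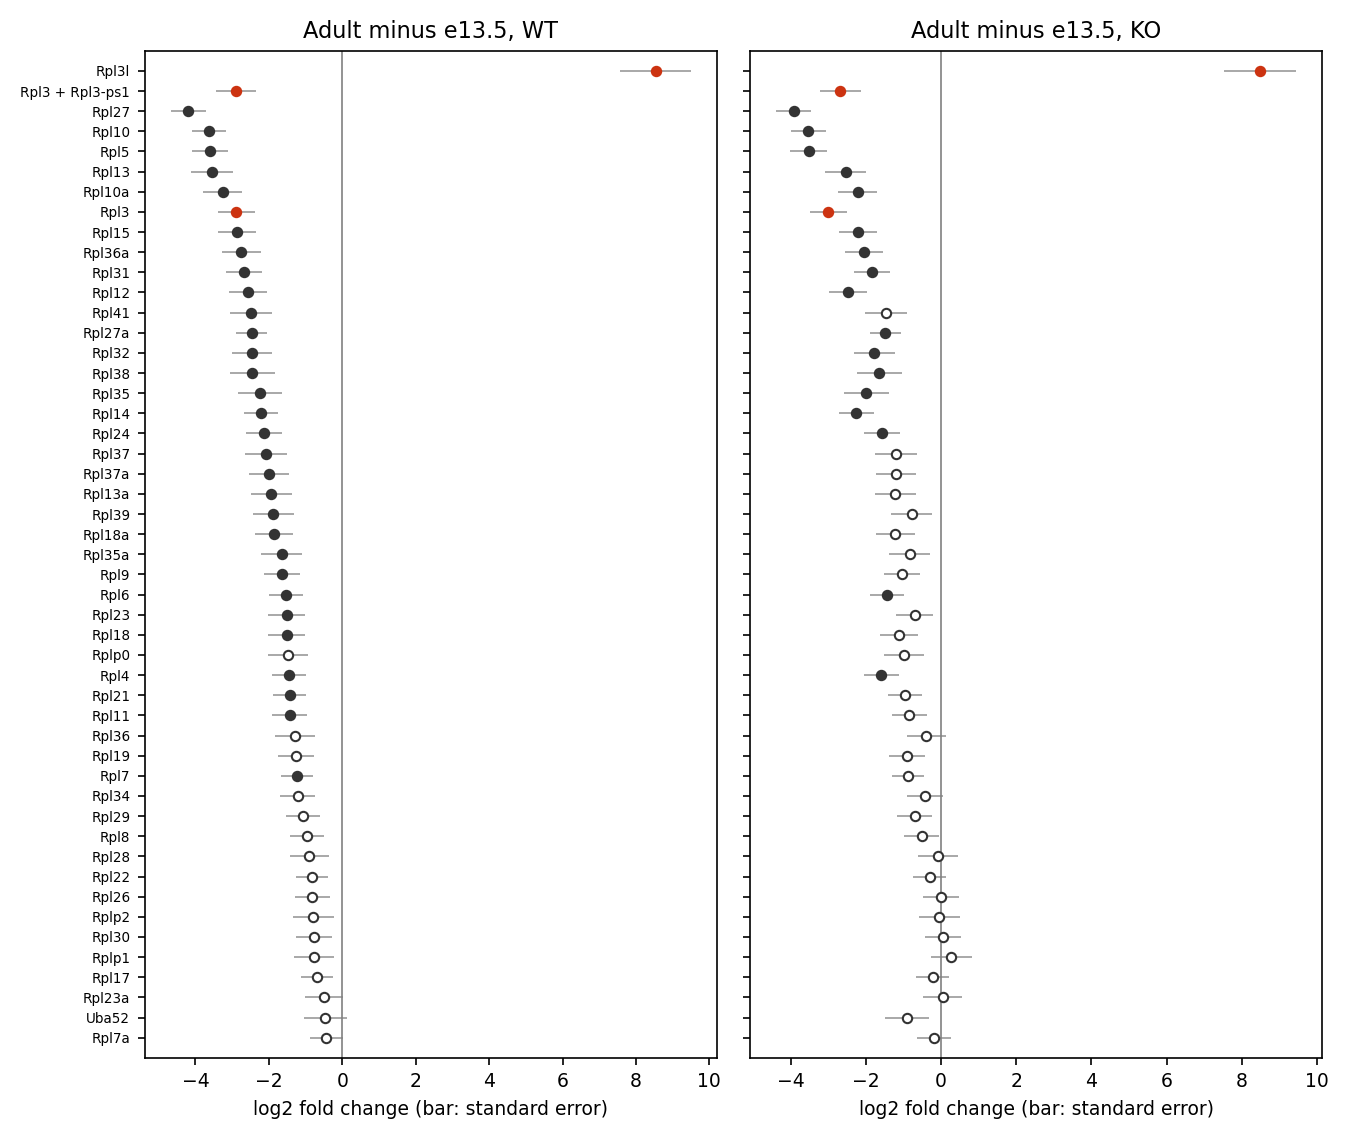
Log2 fold change of adult against e13.5 hearts in WT (left) and KO (right) for 47 large subunit genes, ordered by WT, with Rpl3l and the summed row at the top; bars show the standard error, filled points have an adjusted p below 0.05 and red marks the Rpl3 family. Rpl3l stands alone on the right at 8.54 and 8.49, and Rpl3 lies at -2.88 and -2.997 among the larger falls.

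Rpl3l was the sole paralog of a ribosomal protein gene, of 7 listed and 5 tested, that rose with age. In WT 3 others fell, Rpl22l1, Rps4l and Rps27l, and in KO 2 of these, Rpl22l1 and Rps4l. Of all genes tested, 17.8% rose and 21.1% fell in WT, and 20.5% rose and 20.9% fell in KO. Rpl22l1, the paralog of Rpl22, went from 129.5 ± 66.0 to 5.91 ± 2.42 CPM in WT (-4.45 ± 0.59, adjusted p = 6.16e-04, edgeR) and changed by -3.98 ± 0.57 in KO. Rpl22 itself had -0.82 ± 0.44 in WT (adjusted p = 0.164, edgeR). Rps4l changed by -3.25 ± 0.61 and -3.10 ± 0.61, and Rps27l by -2.28 ± 0.61 in WT and -1.51 ± 0.59 in KO, where it did not pass (adjusted p = 0.0657, edgeR). Rpl7l1 had -0.91 ± 0.50 in WT and -1.15 ± 0.50 in KO and passed in neither genotype. Rpl10l, known from the testis, had 0 counts in all 8 libraries, and Rpl39l had at most 6 counts in a library.

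Of 9 genes for the assembly and modification of Rpl3 and early large subunit particles, Grwd1 and Bop1 fell with age in both genotypes, and Urb1 and Urb2 rose in KO. These 2 of 9 (22.2%) in a direction are near the shares of all genes, 21.1% and 20.9% lower and 20.5% higher in KO, so the count is no result about the list. It also rested on single libraries: from 0 to 5 members changed in WT and 0 to 6 in KO with a library left out. The count was 0 in WT without either replicate of WT adult or KO adult or without WT e13.5 replicate 1, and 0 in KO without either KO adult replicate or KO e13.5 replicate 1, by edgeR. Grwd1 encodes the dedicated chaperone of the Rpl3 protein and went from 35.8 ± 17.6 to 10.2 ± 2.19 CPM in WT (-1.82 ± 0.60, adjusted p = 0.0372, edgeR) and from 53.6 ± 36.9 to 10.9 ± 2.43 CPM in KO (-2.29 ± 0.61, adjusted p = 0.0146, edgeR). Bop1, a ribosome biogenesis factor, changed by -1.33 ± 0.47 and -1.43 ± 0.47. The changes of Urb1 and Urb2, early large subunit assembly factors, were 2.03 ± 0.67 and 2.35 ± 0.73 in KO, and 1.15 ± 0.65 and 0.66 ± 0.69 in WT, which did not pass. Whether those changes differ between the genotypes was not tested. Mettl18, the methyltransferase that modifies a histidine of the Rpl3 protein, stood at 3.30 ± 1.01 CPM at e13.5 and 1.81 ± 0.41 CPM in adult WT hearts (-0.86 ± 0.67) and did not pass in either genotype. Nor did Ddx51, Nol8, Pes1 and Wdr12. The list's median change was -0.62 in WT and -0.59 in KO.

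Genes whose levels ran most alike with each member were sought among 10750 genes with a mean of at least 5 CPM, by Pearson's r of log2 CPM over the 8 libraries, which share group and depth. The 5 closest to Rpl3-ps1 were Tpm3-rs7 (r = 0.990), Rps3a2 (0.986), Gm17383 (0.984), Gm10020 (0.976) and Rpl34-ps1 (0.960). Of these, 4 are annotated as processed pseudogenes and Tpm3-rs7 as protein coding. Rpl3 and Rpl3-ps1 were chosen for their genotype differences, so the genes found closest to them are not independent of that choice. Tpm3-rs7, Rps3a2, Gm10020 and Rpl34-ps1 also recur among the pairs below, which therefore add no separate evidence. Closest to Rpl3 was Tpm3 (r = 0.976), a tropomyosin gene, at 348 and 295 CPM in WT e13.5, 129 and 107 CPM in KO e13.5, 61.0 and 46.7 CPM in WT adult and 33.1 and 16.8 CPM in KO adult libraries. Rasgef1b (0.946), Hist3h2a (0.943), Snx10 (0.938) and Bik (0.935) followed. Closest to Rpl3l were Parp3 (0.999), Coq8a (0.999), Khdrbs3 (0.998), Mb (0.998) and Ppp6r1 (0.998). Mb, the gene of the muscle oxygen store myoglobin, went from 156 to 423 CPM at e13.5 to 10708 to 14902 CPM in adults.

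Parent genes and near-identical copies with a like genotype pattern are set beside Rpl3 as values, since an earlier account of these libraries had shown them. The copy share of the pair's counts was 0 to 0.361% in WT for all 6 pairs at both ages. The pairs were taken up with this pattern known, so a low share in WT and a higher one in KO came with the choice. It is no independent result. Gm5879 and Rpl3-ps2, near-identical copies of Rpl3 described above, held few counts in either genotype. For Tpm3-rs7 the share was 71.4% to 72.7% in embryonic KO and 54.5% to 55.2% in adult KO libraries, below the shares of Rpl3-ps1 at the same age. Tpm3 itself had a KO to WT ratio of mean CPM of 0.369 at e13.5 and 0.464 in adults, and with its copy added the ratio was 1.32 and 1.03. For Rps3a1 the copy Rps3a2 took 17.7% to 21.6% in embryonic KO and 10.2% to 10.8% in adult KO libraries. Rps3a1 alone had ratios of 0.723 at e13.5 and 1.04 in adults, and 0.900 and 1.16 with the copy added. Rpl34-ps1 took 12.3% to 15.4% in embryonic KO and 21.4% to 22.7% in adult KO libraries. Rpl34 alone had KO to WT ratios of 0.660 at e13.5 and 1.14 in adults, and 0.767 and 1.46 with the copy added. The copies of Rpl15 together took 17.8% to 26.6% and 24.7% to 39.0%, while Rpl15 alone had ratios of 1.05 and 1.65. With both copies added these were 1.33 and 2.48. Adding the copies did not bring this gene, or Rps3a1 and Rpl34 in adults, nearer to 1. Among these 6 pairs Rpl3 had the lowest ratio of a parent gene, 0.207 and 0.191, and the highest copy share. Rpl3 and Rpl3-ps1 were chosen for their genotype differences, so their place in this order was not independent of the choice. Identity to the parent was 98.7% to 99.8%, with 2 mismatches for Rpl3-ps1, Gm10020 and Rpl34-ps1, 4 for Rps3a2, 8 for Rpl15-ps2 and 13 for Tpm3-rs7.

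**Figure D5:**
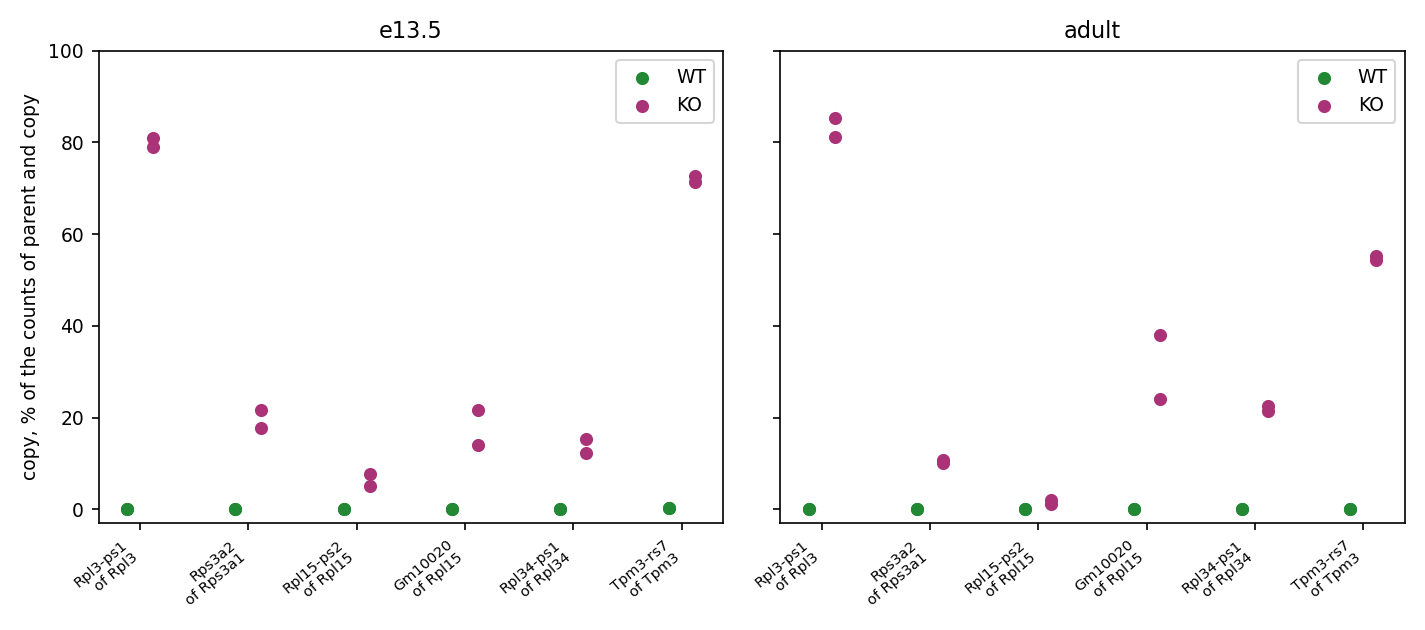
Share of the counts of a parent gene and its copy that lay on the copy, in percent, at e13.5 (left) and in adults (right), with 1 point per library, WT in green and KO in purple. WT points lie at or near 0, and KO points for Rpl3-ps1 lie between 79.1% and 85.3%, above those of the other 5 copies. The pairs were chosen with this pattern known.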

How the data were processed

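RNA of cardiomyocytes was sequenced in 8 libraries; 200 ng of total RNA was amplified with Smart-seq2 per the labels' protocols. The authors deposited estimated counts for each gene (RSEM's expected counts), made with RSEM on mm10 per the submitters' processing notes; RSEM divides reads shared by near-identical genes by its model. They are whole numbers with differing totals and were used unrounded and unscaled, although the table's name speaks of normalised input. The sources used here give no aligner or annotation. Symbols, positions and transcript sequences came from GENCODE vM21 (GRCm38, the same assembly as mm10), which named 51633 of 51826 identifiers. Genes were filtered with filterByExpr (16623 kept, the 3 members among them), scaled by TMM (factors 0.770 to 1.44) and fitted in edgeR 4.0.16 (R 4.3.3) with 4 group means and 4 residual degrees of freedom; a gene counted as changed at an adjusted p below 0.05. The summed row was fitted with the rows of Rpl3 and Rpl3-ps1 merged. The ratio used 0.5 added counts and exact enumeration in scipy 1.17.1. Copies were found with BLAST 2.17.0; named copies begin with Rpl3-ps or match at 95% identity or more over 50% or more of their length. Other named genes were the 4 largest rises and falls of the large subunit list in WT, of which 0 rises existed, with the ends of that list given besides, all paralogs and assembly genes, the 5 closest patterns per member, and the copy pairs. Rpl22 was added after its values were seen. The members and lists were chosen with earlier results of these data known. The fit was tested on simulated data. Alternatives were no filter and a stricter one, 2 other scalings, mitochondrial and haemoglobin genes removed, DESeq2 1.42.0, the 4 libraries of a comparison alone, the replicate number as a block and each library left out. No library was left out of the main results, and replicates of each group differed by more than sampling noise. LncSync carries no row under that name, so its loss was not checked here.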

Additional observations from a re-analysis of the deposited data

How the results depend on the processing

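The 7 age results of the members kept their direction under all 16 alternatives each, and 110 of 112 values stayed on their side of the threshold. The exceptions were the WT sum without WT adult replicate 2 and Rpl3-ps1 in KO without KO adult replicate 2. With a library left out, the log2 change of Rpl3l ran from 8.32 to 8.93 in WT and 7.55 to 10.82 in KO, of Rpl3 from -3.18 to -2.33 and -3.42 to -2.66, of the sum from -3.19 to -2.33 and -3.34 to -2.21, and of Rpl3-ps1 in KO from -3.32 to -2.12. The count of large subunit genes that fell ran from 8 to 35 in WT and 4 to 19 in KO with a library left out. The descriptive KO minus WT values ran as follows with a library left out. At e13.5 they were -2.57 to -1.72 for Rpl3, -2.11 to 1.16 for Rpl3l, -0.24 to 0.61 for the sum and 9.76 to 10.68 for Rpl3-ps1. In adults they were -2.82 to -2.06 for Rpl3, -0.041 to 0.34 for Rpl3l and -0.41 to 0.70 for the sum. The log2 rise of the ratio was 11.02 to 12.06 with a library left out (p = 0.0571 in each, exact permutation test), and 11.63 with labels exchanged only within a replicate number as a block or only within a genotype (p = 0.0556 in both, exact permutation test). Those p-values are the smallest these designs allow, so none could pass. The replicate block changed no call of the members; with it 36 large subunit genes fell in WT and 26 in KO. Replicate 1 minus replicate 2 correlated across genes with r = -0.0321 between the ages in WT and 0.129 in KO. The numbers are therefore not treated as pairs in the age comparisons. Between the genotypes r was 0.552 at e13.5 and 0.307 in adults. The standard errors of the KO minus WT values do not take this shared part into account. Of all genes tested, 6463 changed with age in WT and 6883 in KO, against 2990 without WT adult replicate 1 and 3001 without WT adult replicate 2, and 4181 and 3710 without KO adult replicate 1 and 2. Upper quartile scaling moved the all-gene median by -0.13 in WT and -0.20 in KO, and median of ratios scaling by -0.11 in KO. With no filter it moved by -0.31 in WT and -0.11 in KO, and without KO e13.5 replicate 2 the KO median was 0.069. For the small subunit, paralog and assembly lists, the same alternatives were run after the data were seen; in the assembly list, 1 gene changed in WT under median of ratios scaling, with mitochondrial and haemoglobin genes removed, or with the 4 libraries alone, and 2 in KO without either WT adult replicate. In the paralog list, 5 changed in KO with the replicate block or without KO e13.5 replicate 2. With a group left at 1 library, that library is assumed to vary like the others. At e13.5, 4 to 25 counts of Rpl3l per library limit the precision of its rise.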

Other observations

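Of 32 small subunit ribosomal protein genes, which were outside the comparisons above, 19 fell in WT adults against e13.5 and 13 did not pass, with a median log2 change of -1.60 (edgeR, adjusted p below 0.05 over all genes). In KO, 10 of 32 fell and 22 did not pass, with a median of -0.96, and 28 of the 32 changes were negative. The background is 21.1% of all genes lower in WT and 20.9% in KO. These counts rested on single libraries. In WT, 9 changed without WT e13.5 replicate 1, 7 without WT adult replicate 1 and 3 without WT adult replicate 2. In KO, 3 changed when KO adult replicate 2 was left out, and 6 when either WT adult library or KO e13.5 replicate 2 was left out. With the replicate number as a block, 16 changed in KO. The small and large subunit lists were not compared by a test.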
